A study of Mus musculus with 31 samples.

Results

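The miR-29 family was represented by 5 of the 650 miRNAs on the array, all mature forms, which were followed in mouse lung. They were taken by name from the scanner files: mmu-miR-29a-3p, mmu-miR-29b-3p and mmu-miR-29c-3p, the arms that act as guides, and mmu-miR-29a-5p and mmu-miR-29b-1-5p, minor arms of the hairpins. The prefix mmu, for mouse, is left out from here on. Together they are read by 14 of the 1857 probes. RNA came from whole lungs of female BALB/c mice in a study of chronic obstructive pulmonary disease. The 15 smoke arrays hold lungs exposed to cigarette smoke for 4, 6, 8 or 12 weeks (4, 4, 4 and 3 arrays), and the 16 control arrays hold lungs kept in room air for the same durations (4 arrays each). The labels give no age, no smoke dose and no statement that each array is a separate mouse, so the p-values rest on sample-to-sample spread that may be technical in part. In whole lung, fewer cells of a type and less RNA per cell cannot be told apart.

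Guide miRNAs bind messenger RNAs mainly through the seed, a short run of bases near the 5′ end, and lower their translation or stability. The miR-29 guide arms are known as repressors of extracellular matrix genes, among them collagens (Col1a1, Col3a1) and elastin (Eln), and loss of miR-29 has been linked to fibrosis of lung, heart and liver. The minor arms come from the same hairpins but carry other seeds, and their roles are less known.

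The sequences are shown because the seed decides which members can share targets, and because the guide arms are nearly alike. All 5 members matched the RefSeq table (GRCm38.p6); the seed, bases 2 to 8, is in capitals.

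miR-29a-3p: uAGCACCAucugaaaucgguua

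miR-29b-3p: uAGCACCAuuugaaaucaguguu

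miR-29c-3p: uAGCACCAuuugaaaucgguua

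miR-29a-5p: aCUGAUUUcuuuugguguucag

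miR-29b-1-5p: gCUGGUUUcauauggugguuua

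The 3 guide arms share the seed AGCACCA, which no other of the 1679 mature miRNA names in that table carries. Counted from 1 at the 5′ end, miR-29a-3p and miR-29c-3p differ by 1 base (C10U, the miR-29a-3p base first). miR-29c-3p and miR-29b-3p differ at 3 of the positions they share (G18A, U21G and A22U, the miR-29c-3p base first). How far a probe for one guide arm also binds another was not tested. The seeds of miR-29a-5p and miR-29b-1-5p were each held by 1 name in the table. The hairpins of Mir29a and Mir29b-1 lie on the minus strand of chromosome 6, with 275 bases between them. They are shown, with their mature arms in capitals, because each yields a guide arm and a minor arm that were both measured.

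Mir29a (chr6:31062660-31062747, minus strand): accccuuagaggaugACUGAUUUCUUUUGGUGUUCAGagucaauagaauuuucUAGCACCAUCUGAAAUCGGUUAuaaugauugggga

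Mir29b-1 (chr6:31063023-31063093, minus strand): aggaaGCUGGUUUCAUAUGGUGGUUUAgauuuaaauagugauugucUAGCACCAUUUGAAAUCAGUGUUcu

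miR-29b-3p is also made from Mir29b-2 on chromosome 1, which lies 426 bases from Mir29c, so its signal sums products of both loci, whereas miR-29b-1-5p comes from Mir29b-1.

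Values are log2 of the scanner's processed signal after division by each array's 75th percentile, so that 0 is the level of that percentile; only changes of a probe between arrays are read, never the level of one probe against another. The 75th percentile before scaling was 1018 to 3725 across arrays, and 224 to 295 miRNAs were detected per array. All 5 members were detected on all 31 arrays. The listed miRNAs of endothelium (2), epithelium (5), multiciliated cells (3), smooth muscle and mesenchyme (4) and leukocytes (4) were also detected on all arrays, whereas the brain miRNAs miR-124-3p and miR-9-5p were detected on 0 and 2 arrays. The liver miRNA miR-122-5p was detected on 11 arrays and reached 1.57 log2 on smoke array 3 of 12 weeks, against -4.70 or less on the other arrays; leaving that array out changed no call of a member. The leading principal component of the 207 miRNAs detected on every array held 47.5% of the variance. Smoke arrays 2 and 3 of 4 weeks had the 2 highest scores on it, 9.12 and 4.84. The other 29 arrays lay between -5.28 and 3.90. Smoke array 2 thus stood apart, while smoke array 3 lay near the next highest score, that of control array 4 of 6 weeks. The 4-week results of the members are given with and without smoke arrays 2 and 3. The members are among the 207 miRNAs, so leaving out arrays by this score can take out part of their own difference by construction. Results without these arrays therefore cannot show where the 4-week differences come from. Each of the 4 slides held smoke arrays in 1 row and control arrays in the other, so condition and row cannot be told apart.

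**Figure D1:**
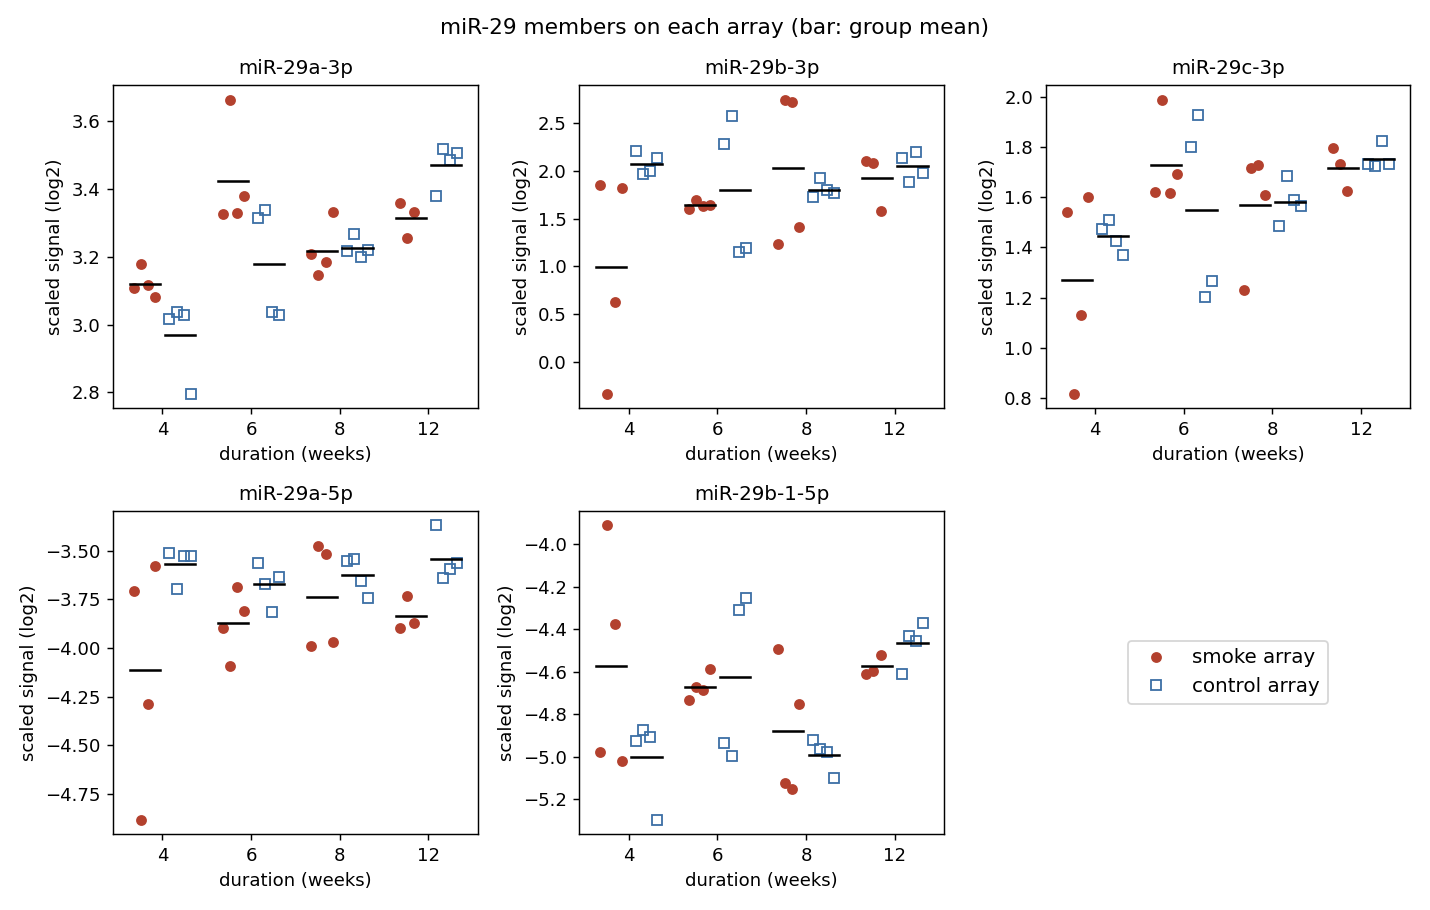
Scaled signal (log2, y axis) of each member on each of the 31 arrays by duration in weeks (x axis), smoke arrays as filled circles left of control arrays as open squares, with bars at group means. Smoke arrays 2 and 3 of 4 weeks lie at -0.33 and 0.63 for miR-29b-3p, below the 4 control arrays at 1.97 to 2.20, and the miR-29a-3p control arrays of 12 weeks lie at 3.38 to 3.52.

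Of the guide arms, miR-29b-3p varied most. At 4 weeks it lay at 1.85, -0.33, 0.63 and 1.82 log2 on smoke arrays 1 to 4, against 2.20, 1.97, 2.00 and 2.13 on the control arrays. All 4 smoke arrays were below all 4 control arrays, a separation that 6.23% of the 273 tested miRNAs showed in this direction, but 2 of them lay close to the controls. The smoke-minus-control difference was -1.08 log2 (SE 0.38, n = 4 and 4, adjusted p = 0.0311 by limma with Benjamini-Hochberg adjustment over all tested miRNAs), 0.472-fold. Without smoke arrays 2 and 3 the difference was -0.24 log2 with an adjusted p of 0.837 in the same model. Leaving out smoke array 2 or 3 or control array 1 or 4 alone also ended the call, at -1.37 to -0.64 log2 over the single arrays left out and adjusted p up to 0.211. Within slides 1 to 4 the difference was -0.35, -2.30, -1.37 and -0.31 log2.

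At 6 weeks miR-29b-3p lay at 1.60 to 1.70 on the smoke arrays, against 2.28 and 2.57 on control arrays 1 and 2 and 1.16 and 1.19 on control arrays 3 and 4. At 8 weeks the split was on the other side: smoke arrays 2 and 3 were at 2.74 and 2.72 and smoke arrays 1 and 4 at 1.23 and 1.42, against 1.72 to 1.92 on the control arrays. At 12 weeks the smoke arrays lay at 1.58 to 2.11, against 1.89 to 2.20 on the control arrays. The groups overlapped at these 3 durations, and the differences of -0.16 (SE 0.38), 0.22 (SE 0.38) and -0.13 log2 (SE 0.41) did not pass the test. The spread of miR-29b-3p within groups, an SD of 0.56 log2, was the 7th largest of the 273 tested miRNAs, whose median was 0.21.

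miR-29a-3p spanned a narrow range, 2.80 to 3.66 log2 over all arrays, with an SD within groups of 0.10. At 4 weeks it lay at 3.11, 3.18, 3.12 and 3.08 on smoke arrays 1 to 4, against 3.02, 3.04, 3.03 and 2.80 on the control arrays. The smoke arrays were above all control arrays, as for 23.4% of the tested miRNAs, and the difference of 0.15 log2 (SE 0.076, adjusted p = 0.103 by limma), or 0.13 log2 without smoke arrays 2 and 3, did not pass; the median difference over all tested miRNAs at 4 weeks was 0.17. At 6 weeks it lay at 3.33, 3.66, 3.33 and 3.38 on the smoke arrays, against 3.31, 3.34, 3.04 and 3.03 on the control arrays. The groups overlapped, and the difference of 0.24 log2 (SE 0.076, 1.18-fold) passed at an adjusted p of 0.0436 by limma. That call was marginal: it was lost without control array 3 or 4 or smoke array 2 or 4, with adjusted p up to 0.197 when 1 array was left out, and in 11 of 23 alternative settings. Within slides 1 to 4 the difference was 0.01, 0.33, 0.29 and 0.35 log2.

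At 8 weeks miR-29a-3p differed by -0.01 log2 (SE 0.076) between smoke and control lungs. At 12 weeks it lay at 3.36, 3.25 and 3.33 on the smoke arrays, against 3.38, 3.52, 3.49 and 3.51 on the control arrays. Here the smoke arrays were below all control arrays, as for 25.3% of the tested miRNAs, with a difference of -0.16 log2 (SE 0.082, adjusted p = 0.240 by limma). The limma F test of whether the smoke effect differed between the 4 durations gave an adjusted p of 0.0678 for miR-29a-3p, and no member passed it, where 6.96% of the tested miRNAs did. It passed for miR-29a-3p when smoke array 4 of 4 weeks, control array 1 or 2 of 6 weeks or smoke array 4 of 8 weeks was left out, at an adjusted p down to 0.0323.

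miR-29c-3p, which differs from miR-29a-3p by 1 base, did not pass at any duration. At 4 weeks it lay at 1.54, 0.82, 1.13 and 1.60 on smoke arrays 1 to 4, against 1.37 to 1.51 on the control arrays. Smoke arrays 2 and 3 were again the low ones, and the difference was -0.17 log2 (95% interval -0.49 to 0.14), against 0.13 log2 (SE 0.16) without them. At 6, 8 and 12 weeks its differences were 0.18, -0.01 and -0.04 log2. Averaged over the 4 durations it was -0.01 log2 (95% interval -0.17 to 0.15).

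Among the minor arms, miR-29a-5p had the lower mean in smoke lungs at each duration. At 4 weeks it lay at -3.71, -4.88, -4.29 and -3.58 on smoke arrays 1 to 4, against -3.51, -3.70, -3.52 and -3.53 on the control arrays. Smoke arrays 2 and 3 were far below the controls, and array 4 was within their range. The difference was -0.55 log2 (SE 0.18, adjusted p = 0.0221 by limma), 0.684-fold, and without smoke arrays 2 and 3 it was -0.08 log2 (adjusted p = 0.848). Leaving out smoke array 2 or 3 or control array 4 alone also ended the call, with adjusted p up to 0.155.

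At 6 weeks miR-29a-5p lay at -4.09 to -3.69 on the smoke arrays, against -3.81 to -3.56 on the control arrays. At 8 weeks smoke arrays 1 and 4 were at -3.99 and -3.97 and smoke arrays 2 and 3 at -3.47 and -3.51, against -3.74 to -3.54 on the control arrays. At 12 weeks it lay at -3.90, -3.73 and -3.87 on the smoke arrays, all below the control arrays at -3.64 to -3.37, as for 25.3% of the tested miRNAs. The differences of -0.20 (SE 0.18), -0.11 (SE 0.18) and -0.29 log2 (SE 0.19) did not pass one by one. Averaged over the 4 durations the difference was -0.29 log2 (SE 0.091, 95% interval -0.48 to -0.10, n = 15 and 16, adjusted p = 0.0182 by limma), 0.819-fold. Of the 15 smoke arrays, 8 lay below every control array, and 13 lay below the control mean of their own duration. These counts were made for the members only, with no share over all tested miRNAs to set beside them. The average passed with each array left out in turn, at -0.33 to -0.22 log2. Within slides 1 to 4 the average was -0.30, -0.42, -0.20 and -0.15 log2, and 12 of the 15 smoke and control pairs on 1 slide were negative. This count too was made for the members only, with no share over all tested miRNAs. Without smoke arrays 2 and 3 of 4 weeks the average was -0.17 log2 (SE 0.057, adjusted p = 0.0217). It did not pass in 4 of 22 alternative settings. Among the marker miRNAs, the leukocyte miRNAs miR-142-3p and miR-142-5p also fell in the average, by 0.65 log2 each (adjusted p = 0.00553 and 0.000379), while miR-223-3p (0.34) and miR-150-5p (-0.30) did not pass. The summed leukocyte list lay at 2.32 to 3.41 log2 on the smoke arrays and at 2.80 to 3.35 on the control arrays. The endothelial miR-126-3p fell by 0.13 log2 (adjusted p = 0.00735 by limma), and miR-126-5p (-0.06) did not pass. miR-449a-5p of multiciliated cells, miR-429-3p of epithelium and miR-199a-3p of mesenchyme rose, and no other miRNA of these lists passed. The others were miR-34b-5p (-0.004) and miR-34c-5p (-0.05), then miR-200a-3p (-0.005), miR-200b-3p (0.06), miR-200c-3p (0.22) and miR-141-3p (-0.08). In mesenchyme they were miR-143-3p (-0.05), miR-145-5p (-0.13) and miR-214-3p (0.03). Without smoke arrays 2 and 3 of 4 weeks, the calls of some markers in the average changed. There miR-150-5p (adjusted p = 0.0149 by limma) and miR-145-5p (0.0265) passed, and miR-199a-3p (0.0585) did not. The part of these marker miRNAs in the miR-29a-5p difference was not tested.

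On the arrays of 4 weeks, miR-29b-1-5p stood opposite to the guide arm of its own hairpin. It lay at -4.98, -3.91, -4.37 and -5.02 on smoke arrays 1 to 4, against -4.93, -4.87, -4.91 and -5.30 on the control arrays. The arrays that were low in miR-29b-3p were the high ones here. miR-29b-1-5p was dim, with a signal before scaling of 44.6 to 116.5 over all arrays. Its scaled value ran against the array's 75th percentile (r = -0.682 over 31 arrays), whose part was not tested. The difference of 0.43 log2 (SE 0.19, adjusted p = 0.0728 by limma) did not pass, nor did those of -0.05, 0.11 and -0.11 log2 at 6, 8 and 12 weeks. The 4-week difference was 0.0019 log2 (SE 0.18) without smoke arrays 2 and 3. It passed without smoke array 1 or smoke array 4, with all-probe scaling, with the 75th percentile as a covariate and with the member's second probe.

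**Figure D2:**
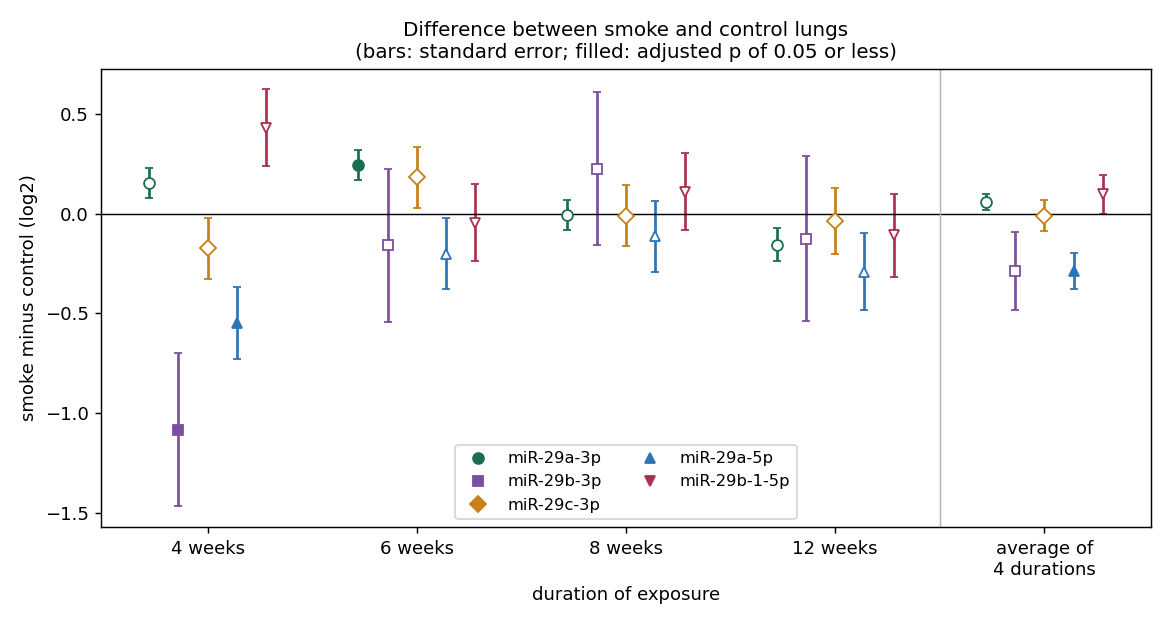
Smoke minus control difference of each member (log2, y axis) at each duration and averaged over the 4 durations (x axis), with standard errors as bars and filled markers at an adjusted p of 0.05 or less. The filled markers are miR-29b-3p (-1.08) and miR-29a-5p (-0.55) at 4 weeks, miR-29a-3p (0.24) at 6 weeks and miR-29a-5p (-0.29) in the average.

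Of the 5 members, 2 thus passed at 4 weeks, where 39.6% of the 273 tested miRNAs passed, 1 passed at 6 weeks, where 8.06% passed, and none passed at 8 or 12 weeks, where 11% and 9.52% passed. In the average 1 passed, where 27.5% did. The median difference of the 5 members was -0.17 log2 at 4 weeks, against a median of 0.17 over all tested miRNAs, and -0.01 log2 in the average, against -0.0048 over all. With 5 members, no result about the family as a group is read from these counts.

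The 4-week differences ran with other features of the same arrays. The summed leukocyte miRNAs (4 of 4 detected on every array) lay at 2.32 to 3.06 log2 on the smoke arrays of 4 weeks, against 3.16 to 3.21 on the control arrays. Its members did not run one way: miR-142-3p (-1.28) and miR-142-5p (-1.06) fell, miR-223-3p (0.76) rose, and miR-150-5p (0.36) did not pass. The summed multiciliated miRNAs lay at -0.05 to 0.99, against 1.14 to 1.38, where miR-34b-5p (-0.81) and miR-34c-5p (-0.64) fell and miR-449a-5p (-0.09) did not pass. The summed epithelial miRNAs lay at 2.75 to 3.08, against 2.56 to 2.72, and those of smooth muscle and mesenchyme at 2.49 to 2.69, against 2.35 to 2.51. These lists were split too. miR-200b-3p (0.43), miR-200c-3p (0.57) and miR-429-3p (0.37) rose, while miR-141-3p (-0.93) and miR-200a-3p (-0.28) did not pass. In mesenchyme miR-199a-3p (0.22) rose, while miR-143-3p (-0.11), miR-145-5p (0.23) and miR-214-3p (0.34) did not pass. The summed striated muscle miRNAs lay at 0.71 to 0.90 on these smoke arrays, against 0.86 to 2.76 on the control arrays. Of these, miR-133a-3p (-0.93) and miR-133b-3p (-0.98) fell, and miR-1a-3p (-0.84) did not pass. Among erythroid miRNAs, miR-144-3p (-1.31) fell and miR-451 (0.11) did not pass. Without smoke arrays 2 and 3, miR-429-3p alone of the tested marker miRNAs passed at 4 weeks (adjusted p = 0.020 by limma). The part of the marker miRNAs in the miR-29 differences was not tested.

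Across all 31 arrays the members followed the leading component to different degrees. Pearson's r with its score was -0.905 for miR-29b-3p, 0.915 for miR-29b-1-5p, -0.767 for miR-29a-5p, -0.586 for miR-29c-3p and 0.213 for miR-29a-3p, as descriptions over arrays that also define the component. Without smoke arrays 2 and 3 of 4 weeks, in the same order, the values were -0.827, 0.887, -0.53, -0.265 and 0.386. Of the 207 miRNAs, miR-29b-3p had the 3rd lowest weight on the component. With the score as a covariate in the limma model, the 4-week difference of miR-29b-3p was 0.07 log2 (adjusted p = 0.607) and that of miR-29a-5p was -0.10 log2 (adjusted p = 0.599). The members are among the 207 miRNAs that define the score, so this covariate takes out part of their own difference by construction. The adjusted values therefore cannot show where the 4-week differences come from.

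**Figure D3:**
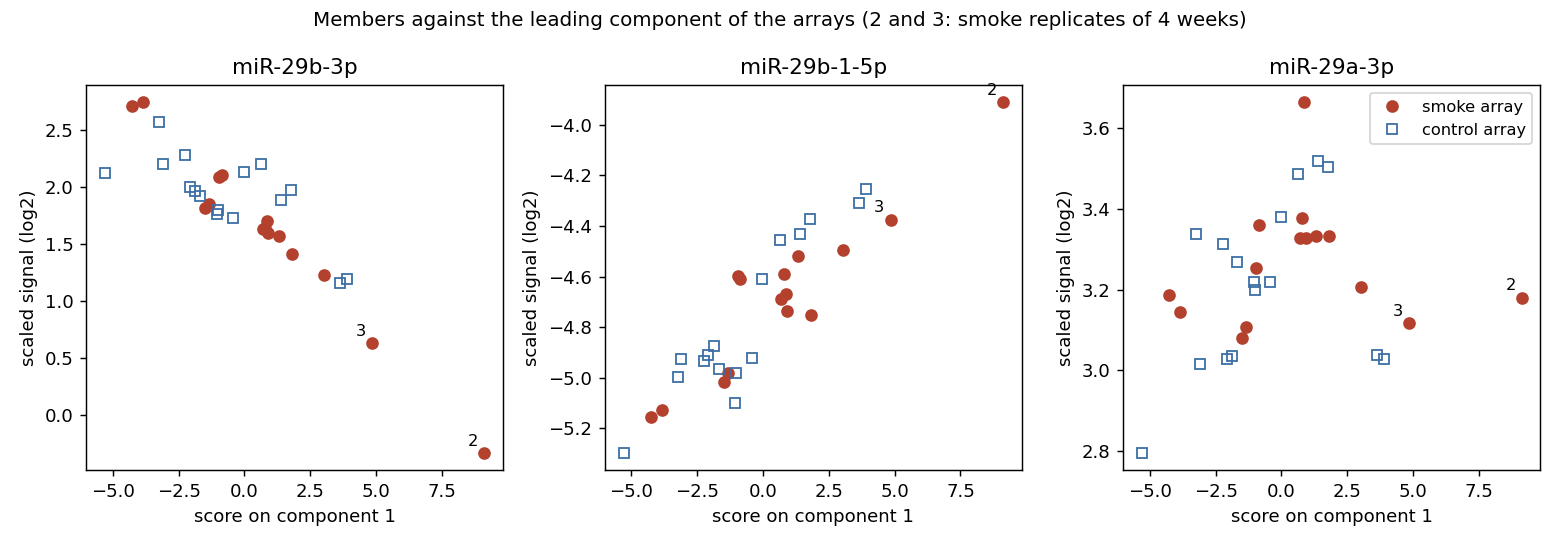
Scaled signal (log2, y axis) of miR-29b-3p, miR-29b-1-5p and miR-29a-3p against the array's score on the leading component (x axis, no unit), smoke arrays as filled circles and control arrays as open squares, with 2 and 3 marking the smoke replicates of 4 weeks. miR-29b-3p falls (r = -0.905) and miR-29b-1-5p climbs (r = 0.915) along the score, while miR-29a-3p shows r = 0.213.

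Within groups, the deviations of miR-29b-3p and miR-29b-1-5p from their group means ran against each other (r = -0.932 over 31 arrays), whereas those of miR-29b-3p and miR-29c-3p ran together (r = 0.887). The deviations of the arms of miR-29a had r = -0.325. These 3 values were -0.874, 0.816 and -0.385 without smoke arrays 2 and 3 of 4 weeks. Arrays share scaling and hybridization, so these values describe the arrays and carry no p. Of the 264 tested mouse miRNAs outside the family, those most like miR-29b-3p over the 31 arrays were miR-141-3p (r = 0.935), miR-101a-3p (0.927) and miR-30e-5p (0.900). Those most like miR-29b-1-5p were miR-92a-3p (r = 0.928), miR-125a-5p (0.922) and miR-342-5p (0.901). For miR-29a-5p they were miR-24-2-5p (r = 0.944), miR-24-1-5p (0.933) and miR-142-3p (0.923). For miR-29c-3p they were miR-106b-5p and miR-340-5p (both 0.816) and miR-200a-3p (0.814), and for miR-29a-3p they were miR-500-3p (0.71), miR-185-5p (0.689) and miR-350-3p (0.682). Without smoke arrays 2 and 3 of 4 weeks the values of these neighbours lay at 0.863 to 0.904 for miR-29b-1-5p, 0.782 to 0.852 for miR-29b-3p, 0.797 to 0.86 for miR-29a-5p, 0.676 to 0.757 for miR-29a-3p and 0.648 to 0.746 for miR-29c-3p.

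The arms of miR-29a were then set against each other on each array, miR-29a-5p minus miR-29a-3p, to ask whether smoke moved them alike; only its change between groups is read. At 4 weeks this difference averaged -7.23 ± 0.64 in smoke lungs and -6.53 ± 0.17 in control lungs (SD, n = 4 each). At 6 weeks it averaged -7.30 ± 0.32 in smoke lungs and -6.85 ± 0.14 in control lungs, at 8 weeks -6.95 ± 0.34 and -6.85 ± 0.08, and at 12 weeks -7.15 ± 0.14 (n = 3) and -7.01 ± 0.18 (n = 4). Smoke lungs were lower at all 4 durations. The mean of the 4 differences was -0.35 log2, with p = 0.00178 in a two-sided permutation test within durations (100000 resamples), and -0.22 log2 with p = 0.00729 without smoke arrays 2 and 3 of 4 weeks. In the authors' deposited table the same value was smaller, -0.14 log2, and did not pass (permutation p = 0.0647). The value is made of the averages of the arms, -0.29 log2 for miR-29a-5p and 0.06 log2 for miR-29a-3p, and is not separate from them. No other hairpin was measured this way. Within groups, miR-29a-5p followed the leading component (r = -0.815), whereas miR-29a-3p did not (r = -0.0069), and the component's part was not tested.

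**Figure D4:**
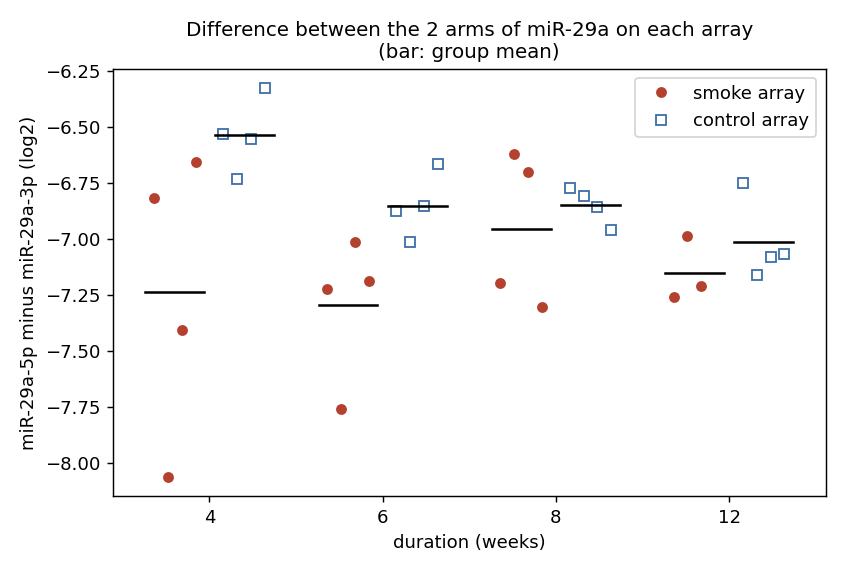
miR-29a-5p minus miR-29a-3p (log2, y axis) on each array by duration in weeks (x axis), smoke arrays as filled circles left of control arrays as open squares, with bars at group means. The smoke means of -7.23, -7.30, -6.95 and -7.15 lie below the control means of -6.53, -6.85, -6.85 and -7.01.

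Over time in room air, miR-29a-3p was the member that differed. Its control arrays averaged 2.97, 3.18, 3.23 and 3.47 log2 at 4, 6, 8 and 12 weeks. All 4 arrays of 12 weeks lay above all control arrays of the other durations, and no share over all tested miRNAs is given for this separation. The limma F test across the control durations gave an adjusted p of 0.00213, where 6.96% of the tested miRNAs passed. The step of 12 against 4 weeks was 0.50 log2 (SE 0.076, adjusted p = 0.000171 by limma), and 33 of the 273 tested miRNAs passed at that step. The call of the F test was lost with quantile normalization (adjusted p = 0.398), with the percentile taken over all probes (0.167), without scaling (0.115) and in the authors' deposited table (0.113). Each duration occupied its own column of every slide, so duration and position cannot be told apart. The 3 tested striated muscle miRNAs also differed between the control durations, as did miR-449a-5p of multiciliated cells (adjusted p = 0.00213 by the same F test). The part of these miRNAs was not tested. In smoke lungs no member passed the F test across durations, where 3.3% of the tested miRNAs did; its adjusted p for miR-29a-3p was 0.0638, and 0.0228 without smoke array 4 of 8 weeks.

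The array's second probe of each member was read as a repeat of the main one on the same hybridization. For miR-29b-3p its 4-week difference was -1.20 log2, for miR-29a-5p -0.46, for miR-29b-1-5p 0.49, for miR-29c-3p -0.23 and for miR-29a-3p 0.19, the same signs as the main probes. With the second probes miR-29b-1-5p passed at 4 weeks (adjusted p = 0.0487 by limma), which it did not with its main probe. Another 2 probes each of miR-29a-5p and miR-29b-1-5p were not above background on any array.

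Other miRNAs with reported roles in matrix and fibrosis were counted beside the family, on a list of 28, of which 26 were tested. At 4 weeks 9 rose and 4 fell in smoke lungs, at 6 weeks 2 rose, at 8 weeks 1 rose and 1 fell, at 12 weeks 2 rose, and in the average 4 rose and 1 fell. Of the 26, 13 passed at 4 weeks, 2 at each of the later durations and 5 in the average, against 39.6%, 8.06%, 11%, 9.52% and 27.5% of all tested miRNAs. Without smoke arrays 2 and 3 of 4 weeks, 1 rose and 0 fell at 4 weeks, and 4 rose and 2 fell in the average. In that setting 17 of all 273 tested miRNAs passed at 4 weeks and 100 of 273 in the average. In the average with all arrays those that rose were miR-155-5p, miR-192-5p, miR-199a-3p and miR-21-5p, and the one that fell was miR-199b-5p. miR-21-5p, a miRNA known to be raised in fibrotic lung, passed at each duration, by 0.97, 1.29, 1.08 and 1.44 log2 at 4, 6, 8 and 12 weeks (SE 0.089 to 0.096). The list's median in the average was 0.03 log2, against -0.0048 over all tested miRNAs.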

How the data were processed

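Lung RNA of the 31 samples was labelled with Cy3 and hybridized to 1-colour Agilent miRNA arrays, read with Feature Extraction 10.7.3.1 per the file headers. The deposited intensity is the scanner's processed signal per spot. The authors' deposited series table holds log2-like values with r of 0.962 to 0.975 to the scanner values; its normalization is not stated in the labels or headers, and it served as an alternative.

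Control spots and outlier spots were left out and spots of a probe averaged. A probe was detected where 50% of its spots were above background. Each array was scaled by its 75th percentile, taken from the 385 probes found on every array, floored at -6.74 log2 and logged. The brightest probe (highest mean log2 signal over all arrays) stood for a miRNA. Probes at the floor tie; 3 readings of this rule were run in turn, and breaking ties by mean scaled signal was settled on after the other 2 had been run and some of their calls seen. All 3 give the members the same probes and the same calls, with 272 or 273 miRNAs tested. Testing required detection on 75% of the arrays in at least 1 group. limma 3.58.1 (R 4.3.3) fitted 8 group means with 23 residual degrees of freedom; Benjamini-Hochberg adjustment ran over the 273 miRNAs, with a threshold of 0.05. The normexp alternative used median signals, since the files hold no mean signal. The number of arrays limits the precision. Fits were tested on simulated data.

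Members, lists and tests were chosen with earlier results of these data known. The text names all members, the 3 miRNAs most like each, and list members that passed. Replicate numbers were checked as pairs: of 15 same-numbered pairs 7 correlated above 0.1 (-0.218 to 0.401), so they do not pair the arrays.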

Additional observations from a re-analysis of the deposited data

Results flagged for a closer look

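Of 35 groups of 4 arrays, 5 held an array far from the others by Dixon's test, which flags about 1 in 20 by chance. miR-29a-3p was low on control array 4 of 4 weeks (2.80 log2, next 3.02) and high on smoke array 2 of 6 weeks (3.66, next 3.38). miR-29a-5p was low on control array 2 of 4 weeks (-3.70, next -3.53). miR-29b-1-5p was low on control array 4 of 4 weeks (-5.30, next -4.93), and miR-29c-3p was high on control array 3 of 12 weeks (1.82, next 1.73). For miR-29a-3p all smoke arrays lay above all control arrays at 4 weeks (0.15 log2) and below them at 12 weeks (-0.16 log2); the difference between these durations alone was not tested.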

How the results depend on the processing

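Over 23 alternative settings, 900 member values were recomputed: 776 kept sign and side of the threshold, 34 lost and 35 gained a call, 52 turned sign with no call in either setting, and 3 turned sign with a call. Those 3 were miR-29b-3p at 4 weeks with the component score as a covariate (0.072), miR-29c-3p at 8 weeks with the 75th percentile as a covariate (0.30), and miR-29b-1-5p at 8 weeks without scaling (-0.71, where the median of all miRNAs shifted to -0.86). The cause was not tested.

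The miR-29a-5p average passed in 18 of 22 settings (-0.44 to -0.14 log2), and not with all-probe scaling (adjusted p = 0.186), no scaling (0.167), normexp (0.549) or no detection filter (0.0548). At 4 weeks miR-29a-5p passed in 16 and miR-29b-3p in 14 of 23 settings, and miR-29a-3p at 6 weeks in 12 of 23.

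The number of members passing at 4 weeks, 2 in the main setting, was 1 with all-probe scaling (miR-29b-1-5p), quantile normalization (miR-29a-5p) or normexp (miR-29a-5p), and 0 without scaling, without the detection filter, with the component covariate, without smoke replicates 2 and 3, without control replicates 1 and 4 together with smoke replicate 3 of 8 weeks, or with only that duration's arrays; it was 3, with miR-29b-1-5p added, with the percentile covariate or the second probes. At 6 weeks, 1 in the main setting, it was 0 with those 3 scalings, normexp, both detection filters, both floors, the deposited table, only that duration's arrays, or without miRNAs mostly at the floor (adjusted p = 0.0686, an alternative chosen after seeing the data, as were the second probes, the other readings of the brightest-probe rule, normexp on median signals, and the arm difference, list counts and correlations without smoke replicates 2 and 3). At 8 weeks, 0 in the main setting, it was 3 without scaling, 1 with the component covariate and 2 with the percentile covariate. At 12 weeks, 0 in the main setting, it was 2 with the component covariate or only that duration's arrays. In the average, 1 in the main setting, it was 0 in the 4 settings above. The effect differed between durations for 0 members, but for 1 without scaling or with the scanner's summed signal, 2 with the component covariate and 4 with the percentile covariate. Control durations differed for 1 member (miR-29b-1-5p in place of miR-29a-3p with all-probe scaling), but for 0 in the 3 settings of quantile normalization, no scaling and the deposited table, 4 with either covariate, and 2 without smoke replicates 2 and 3. Smoke durations differed for 0 members, but for 4 with either covariate. No share over all miRNAs is given for the single-duration fits or these alternative F tests. No gained call is read as a family result.

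Leaving out 1 array at a time gave 0 to 3 members at 4 weeks, 0 to 1 at 6 weeks, 0 to 0 at 8 and 12 weeks, 1 to 1 in the average, 0 to 1 for the effect between durations, 1 to 1 for control and 0 to 1 for smoke durations, and -0.39 to -0.28 for the miR-29a arm difference, which was -0.14 in the deposited table. Leaving out smoke array 2 or 3 or control array 4 of 4 weeks ended both 4-week calls. With the replicate block the counts were 2, 1, 0, 0 and 1 (4, 6, 8 and 12 weeks and average), and it changed no other call; the slide block gave the same counts. In all miRNAs, 77 rose and 31 fell at 4 weeks, against 51 and 10 with all-probe scaling, 48 and 31 with quantile normalization and 17 and 0 without smoke replicates 2 and 3; in the average, 42 rose and 33 fell, against 8 and 20 without scaling and 46 and 66 in the deposited table. At 6 weeks 21 rose and 1 fell, against 12 and 4 with all-probe scaling and 14 and 9 with quantile normalization. At 8 weeks 10 rose and 20 fell, against 20 and 23 with all-probe scaling and 1 and 202 without scaling, and at 12 weeks 14 rose and 12 fell, against 19 and 9 with all-probe scaling, 5 and 1 without scaling and 16 and 31 in the deposited table. The median over all miRNAs at 4 weeks was 0.17, against 0.06 with all-probe scaling, 0.07 with quantile normalization and -0.76 with normexp.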

Other observations

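miR-29c-5p, the minor arm of the miR-29c hairpin, was also on the array and was detected on all 31 arrays. It differed by -0.03, 0.15, -0.08 and -0.09 log2 between smoke and control lungs at 4, 6, 8 and 12 weeks and by -0.01 log2 in the average (SE 0.045), and passed in none of them.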
